A study of Mus musculus with 12 samples.

Results

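Neurons grown from mouse D3 embryonic stem cells with a knockdown of Prmt8 were compared with neurons from unmodified D3 cells. The comparison used 6 of the 12 arrays of the series, 3 from the knockdown line (siPRMT8) and 3 from the unmodified line (D3), and it covered all 19938 genes whose probe sets carry 1 symbol. D3 is an embryonic stem cell line that can be turned into neurons in culture. The cells formed embryoid bodies, floating aggregates, after withdrawal of LIF, the factor that maintains self-renewal, and total RNA was taken at day 16 of differentiation, per the labels. The other 6 arrays were 3 from cells with a knockdown of PRMT1 (siPRMT1) and 3 from cells carrying a scrambled sequence that targets no gene (siSCR). All 4 share the D3 parent, the differentiation and the day of collection. D3 cells received no construct, so a difference between siPRMT8 and D3 holds both the knockdown and the introduction of a construct. Each group is 1 line, and the labels call the 3 arrays of a line biological replicates without saying whether each had its own differentiation. The p-values here cover the spread between these arrays and no more. The values are the authors' log2 values, and levels of different probe sets cannot be set against each other.

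PRMT8 belongs to the protein arginine methyltransferases, enzymes that move methyl groups from S-adenosylmethionine onto arginines of histones, RNA-binding proteins and other targets. It is the close relative of PRMT1, but it is found mainly in the nervous system and is held at the plasma membrane by a fatty acid on its N terminus. A neuron made from stem cells passes through a neural tube-like progenitor stage in which it divides, takes a position along the body axis under retinoic acid and other signals, and then leaves the cell cycle and builds its axon, synapses and ion channels.

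The 12 arrays fell along 1 main axis. The leading principal component took up 61.4% of the variance. Its scores were 23.7, 13.6 and 19.7 for the siPRMT8 arrays and 16.2 to 25.7 for siPRMT1, against 0.105, -26.2 and -22.2 for siSCR and -22.7 to -21.6 for D3. siPRMT8 replicate 2 was thus the knockdown array nearest to D3, and siSCR replicate 1 stood apart from its group. Array spread also followed the groups, with interquartile ranges of 2.93 to 3.04 in siPRMT8 and 3.08 to 3.13 in D3. The part of this difference in spread in the results was not tested. The median standard deviation between arrays of a group was 0.0796 in siPRMT8 and 0.0614 in D3 on the log2 scale. In bulk RNA, fewer cells of a type and less RNA per cell cannot be told apart.

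Prmt8 itself was lower in the knockdown neurons. Its log2 values were 6.44, 6.17 and 6.44 in siPRMT8, against 7.37, 7.41 and 7.40 in D3. Every siPRMT8 array lay below every D3 array. The difference was -1.04 (SE 0.157), or 2.06-fold, with an adjusted p of 0.000993 by limma with Benjamini-Hochberg adjustment, which is the test behind every adjusted p here. The siSCR arrays lay between, at 6.60, 7.18 and 7.10, and the difference of siPRMT8 from them was -0.61 (adjusted p = 0.0171). The siPRMT1 arrays had Prmt8 at 6.35, 6.89 and 6.67, and siPRMT8 differed from them by -0.29 (adjusted p = 0.489). A low Prmt8 value was therefore not shown to be particular to the line labelled siPRMT8. The median difference from D3 of 30 pan-neuronal genes, described below, was -1.03. Whether the fall of Prmt8 differs from theirs was not tested.

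Of the 9 members of the PRMT family that were tested, 2 rose and 2 fell in siPRMT8 against D3. Across all 14953 genes tested, 12.5% rose and 15.2% fell at an adjusted p under 0.05, 27.7% in all. Prmt1, the main asymmetric dimethylating enzyme of most cells, was at 9.27, 9.20 and 9.27 in siPRMT8, against 8.69, 8.86 and 8.71 in D3, a rise of 0.49 (SE 0.0885, adjusted p = 0.00232). Prmt3, which methylates a protein of the small ribosomal subunit, rose by 0.42 (adjusted p = 0.00911). Prmt2, a nuclear receptor coactivator, fell by 0.51 (adjusted p = 0.00643). The remaining members did not pass. They were Carm1 (0.09), the symmetric dimethylating enzyme Prmt5 (0.12), Prmt6 (0.10), Prmt7 (-0.12) and Prmt9 (0.21). The plot of the family by array shows that the rise of Prmt1 separated all siPRMT8 from all D3 arrays, while siPRMT1 arrays were lowest for that gene.

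**Figure D1:**
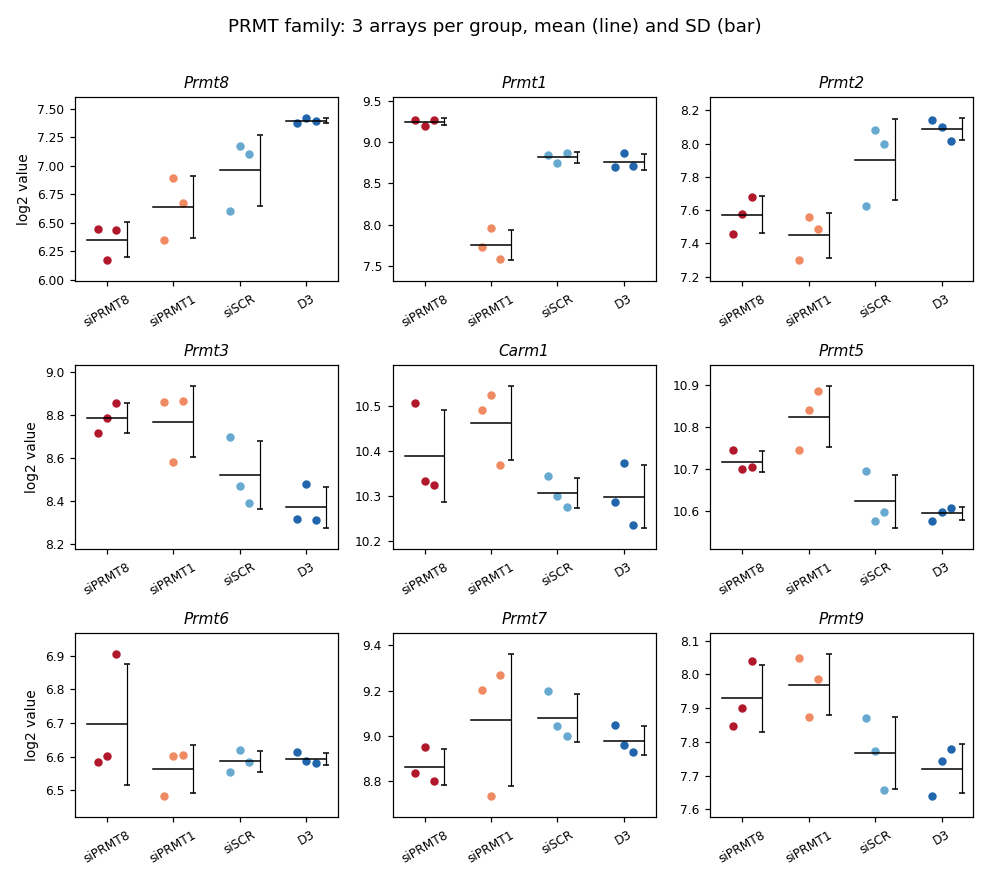
Log2 values of the 9 PRMT genes in each array (points), by group, with the group mean (line) and SD (bar, n = 3). Prmt8 was at 6.17 to 6.44 in siPRMT8 and 7.37 to 7.41 in D3, and Prmt1 was at 9.20 to 9.27 in siPRMT8 and 8.69 to 8.86 in D3.

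Over all genes, 1868 rose and 2267 fell, so 45.2% of the 4135 calls were higher. Large changes were mostly falls. A change of at least 2-fold was seen in 354 genes that fell, or 2.37% of those tested, and in 39 that rose, or 0.261%. The 3 arrays of one group lay wholly above or below the 3 of the other in 52.6% of genes, with siPRMT8 higher in 27.2% and lower in 25.3%. The median difference over all genes was 0.028 and the median size of a difference was 0.149. Quantile normalisation gave 2504 higher and 2010 lower genes (55.5% higher), and centring each array on its median gave 3123 and 1788 (63.6% higher), so the balance of directions depended on the scaling. Without siPRMT8 replicate 3 the total was 2742, and without D3 replicate 1 it was 2736.

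**Figure D2:**
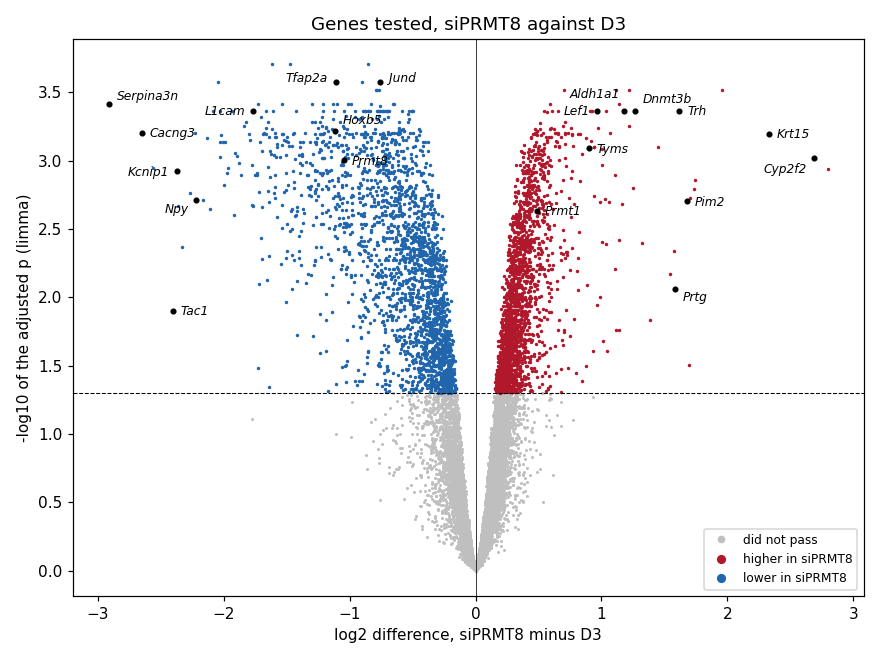
Each point is 1 of 14953 genes, with the log2 difference, siPRMT8 minus D3, across and -log10 of the limma adjusted p upwards, and the dashed line marks 0.05. The 354 genes that fell at least 2-fold reach further to the left than the 39 that rose at least 2-fold reach to the right, and the black points name genes given in the text.

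Among the strongest falls were genes that mature neurons use for peptides, ion channels and calcium signals. The 12 genes with the largest falls among those passing the test with no overlap between groups were Serpina3n, Cacng3, Tmem130, Tac1, Kcnip1, Kcnk9, Vsnl1, Necab1, Pcp4, Npy, Scn2a and Reln. Serpina3n, a secreted serine protease inhibitor made by reactive astrocytes, was at 6.42, 7.15 and 6.65 in siPRMT8, against 9.73, 9.46 and 9.75 in D3, a difference of -2.91 (SE 0.302, adjusted p = 0.000387) or 7.52-fold. Cacng3, an auxiliary subunit that carries AMPA receptors to the surface, was at 4.81, 5.18 and 4.71 in siPRMT8 and at 7.58, 7.51 and 7.55 in D3. Its difference was -2.65 (adjusted p = 0.000623). The siPRMT8 values of Cacng3 lay below the filter value of 5.43, as did those of Dpp10, Glra2, Kcna4 and Tnr, named further on, so these genes entered the test through the groups in which they were higher. In both genes the lowest D3 array was more than 2 log2 units above the highest siPRMT8 array.

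Vsnl1, which encodes the neuronal calcium sensor visinin-like 1, had 7.73, 8.33 and 8.06 in siPRMT8, against 10.35, 10.42 and 10.33 in D3 (-2.33, adjusted p = 0.0043). Reln, the extracellular guide of migrating neurons, had 6.88, 7.34 and 7.06 in siPRMT8, against 9.25, 9.19 and 9.25 in D3 (-2.13, adjusted p = 0.000684). Pcp4, a calmodulin regulator of neurons, fell by 2.23, and the membrane protein gene Tmem130 fell by 2.56. In all 12 genes, siPRMT8 replicate 2 was the knockdown array nearest to the D3 mean. The same array was nearest for 1220 of the 2267 genes that fell (53.8%). Against siSCR, 10 of the 12 also passed, and Tac1 (adjusted p = 0.0693) and Npy (adjusted p = 0.0778) did not. Without siSCR replicate 1 these became 0.00279 and 0.0146.

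Of 30 pan-neuronal genes, 27 fell and none rose, with a median difference of -1.03. The list holds genes shared by many neuron types, among them genes of the cytoskeleton, adhesion, RNA binding, secretion and metabolism. The mean log2 value of the list was 8.14 to 8.36 in the siPRMT8 arrays, against 9.18 to 9.25 in the D3 arrays. L1cam, an adhesion molecule of growing axons, was at 6.62, 7.07 and 6.76 in siPRMT8, against 8.47, 8.77 and 8.52 in D3 (-1.77, SE 0.203, adjusted p = 0.000429). Mapt, the axonal microtubule protein tau, fell by 1.73, the microtubule-destabilising Stmn4 by 1.58 and the endoplasmic reticulum protein Rtn1 by 1.49. The 3 members that did not pass were the neurofilament subunits. Nefl, the light subunit, was at 9.98, 9.96 and 9.96 in siPRMT8 and at 10.51, 10.71 and 10.62 in D3, so its arrays did not overlap, with a difference of -0.64 (adjusted p = 0.189). Nefm differed by 0.41 (adjusted p = 0.285) and Nefh by 0.07 (adjusted p = 0.595).

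Synapse genes fell on both sides of the cleft. Of 25 genes of the synaptic vesicle and of transmitter release, 21 fell and none rose (median -1.10). Rab3c, a small GTPase of the vesicle, was at 6.28, 7.04 and 6.78 in siPRMT8, against 8.73, 8.77 and 8.69 in D3 (-2.03, SE 0.302, adjusted p = 0.000943). The synaptotagmin gene Syt4 fell by 2.0, the vesicle glycoprotein gene Sv2a by 1.66 and synaptophysin, Syp, by 1.59. Of 25 postsynaptic scaffold and adhesion genes, 17 fell and none rose (median -0.73). Lrrtm2, a partner of the presynaptic neurexins, was at 6.58, 6.93 and 6.47 in siPRMT8, against 8.77, 8.68 and 8.54 in D3 (-2.0, adjusted p = 0.000731). The scaffold gene Dlg2 fell by 1.75, the axonal adhesion gene Cntn1 by 1.51 and Nlgn1, a neurexin receptor, by 1.42.

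Both excitatory and inhibitory transmitter systems were lower. Of 23 glutamatergic genes, 22 fell (median -0.86), and of 16 GABAergic and glycinergic genes, 12 fell (median -0.82), with no rise in either list. Gria2, the AMPA receptor subunit that sets calcium permeability, was at 7.48, 8.21 and 7.68 in siPRMT8, against 9.68, 9.71 and 9.72 in D3 (-1.91, SE 0.279, adjusted p = 0.000875). The metabotropic receptor gene Grm7 fell by 1.65 and the AMPA receptor gene Gria1 by 1.41. Gabra3, a subunit of the GABA-A receptor, was at 6.86, 7.21 and 7.08 in siPRMT8, against 8.76, 8.76 and 8.78 in D3 (-1.72, adjusted p = 0.00802). The glycine receptor gene Glra2 fell by 1.70, Gabra2 by 1.33 and the neuronal glycine transporter gene Slc6a5 by 1.21. The glutamatergic count was the less stable one, at 12 without siPRMT8 replicate 1, 13 without siPRMT8 replicate 3, 10 without D3 replicate 1 and 12 without D3 replicate 3. The count for the inhibitory list was 7 without siPRMT8 replicates 1 or 3 or D3 replicates 1 or 2.

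Peptides and calcium-binding proteins that mark interneuron types fell in 11 of 15 tested genes and rose in 1 (median -0.86). Tac1, the precursor of substance P, was at 6.14, 7.31 and 6.79 in siPRMT8, against 9.09, 9.19 and 9.16 in D3 (-2.40, SE 0.606, adjusted p = 0.0125). Npy, neuropeptide Y, was at 8.15, 9.47 and 8.43 in siPRMT8, against 10.88, 10.82 and 10.99 in D3 (-2.22, adjusted p = 0.00195). The calcium-binding protein gene Necab1 fell by 2.27. In contrast, Trh, the precursor of thyrotropin-releasing hormone, was at 11.11, 10.93 and 11.14 in siPRMT8, against 9.28, 9.85 and 9.20 in D3. It rose by 1.62 (SE 0.182, adjusted p = 0.000429), and no array of the 2 groups overlapped, as in 52.6% of all tested genes. The rise against siSCR was 1.61 (adjusted p = 0.000511).

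Voltage-gated channels, which shape the action potential, fell in 4 of 5 sodium channel genes, 18 of 24 potassium channel genes and 12 of 13 calcium channel genes. The medians were -1.31, -0.64 and -0.65. Scn2a, which encodes a sodium channel of axons and has 14 probe sets, of which the brightest is given, was at 6.67, 7.48 and 7.44 in siPRMT8, against 9.30, 9.39 and 9.39 in D3 (-2.17, SE 0.378, adjusted p = 0.00193). The beta subunit gene Scn3b fell by 1.99, Scn3a by 1.31 and Scn9a, best known from sensory neurons, by 0.49 (adjusted p = 0.0471). Scn9a did not pass when any 1 siPRMT8 or D3 array was left out, nor under quantile normalisation or median centring, which gave 3 of 5 genes. Scn8a did not pass (-0.04, adjusted p = 0.8).

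Among the potassium channel genes, Kcnip1, a subunit that modulates A-type channels, was at 5.43, 6.08 and 5.98 in siPRMT8, against 8.03, 8.33 and 8.24 in D3 (-2.37, SE 0.373, adjusted p = 0.00119). Its partners Dpp10 and Kcnd2 fell by 1.57 and 1.46, and the A-type channel gene Kcna4 by 1.17. Kcnk9, a leak channel gene outside this list, fell by 2.36. The exception was Kcnj3, an inwardly rectifying channel opened by G proteins, at 8.12, 7.78 and 8.21 in siPRMT8 and 6.96, 7.26 and 6.93 in D3, which rose by 0.99 (adjusted p = 0.00201). Of the calcium channel genes, the subunit Cacnb4 fell by 1.60, Cacna2d3 by 1.29, the R-type channel gene Cacna1e by 1.07 and Cacna2d1 by 0.89.

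Among the factors that turn neuronal programmes on, the result differed by control. Of 22 proneural and differentiation factors, 10 fell and none rose against D3 (median -0.29), while against siSCR 4 were lower and 4 higher (median 0.03). Myt1l, a repressor of non-neuronal genes, was at 6.50, 6.83 and 6.47 in siPRMT8, against 8.36, 8.42 and 8.34 in D3 (-1.77, SE 0.272, adjusted p = 0.00107). Ebf3 fell by 1.18, Myt1 by 0.81 and the sensory neuron factor gene Pou4f1 by 0.67. The last 2 did not pass against siSCR, with adjusted p = 0.0737 for Myt1 and 0.456 for Pou4f1. Without siSCR replicate 1, Myt1 passed (-0.44, adjusted p = 0.0143) and Pou4f1 did not (adjusted p = 0.118). Of 22 regulators of neuronal splicing, 15 fell and 1 rose (median -0.55). Rbfox1 was at 6.61, 7.15 and 6.81 in siPRMT8, against 8.79, 8.82 and 8.85 in D3 (-1.96, SE 0.305, adjusted p = 0.00113). Nova1 fell by 1.71, Rbfox3, whose protein is the neuronal marker NeuN, by 1.44 and Celf4 by 1.27. Rbfox3 and Celf4 are also on the pan-neuronal list. The 1 that rose was Ptbp1, which represses neuronal exons outside neurons (0.24, adjusted p = 0.00963).

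Axon guidance genes split, with 18 of 37 falling and 7 rising (median -0.21). Plxna4, a semaphorin receptor, fell by 1.70, the Slit receptor Robo2 by 1.45, Plxnc1 by 1.23 and the ephrin receptor Epha5 by 1.13. Prtg, a netrin receptor relative of the early neural tube, rose by 1.58, the netrin receptor gene Unc5c by 0.58, the ephrin gene Efnb2 by 0.58 and the semaphorin gene Sema3c by 0.48. The count that rose was 4 without siPRMT8 replicate 3 and without D3 replicate 2. Of these 4, Sema3c did not pass against siSCR (0.11, adjusted p = 0.457).

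**Figure D3:**
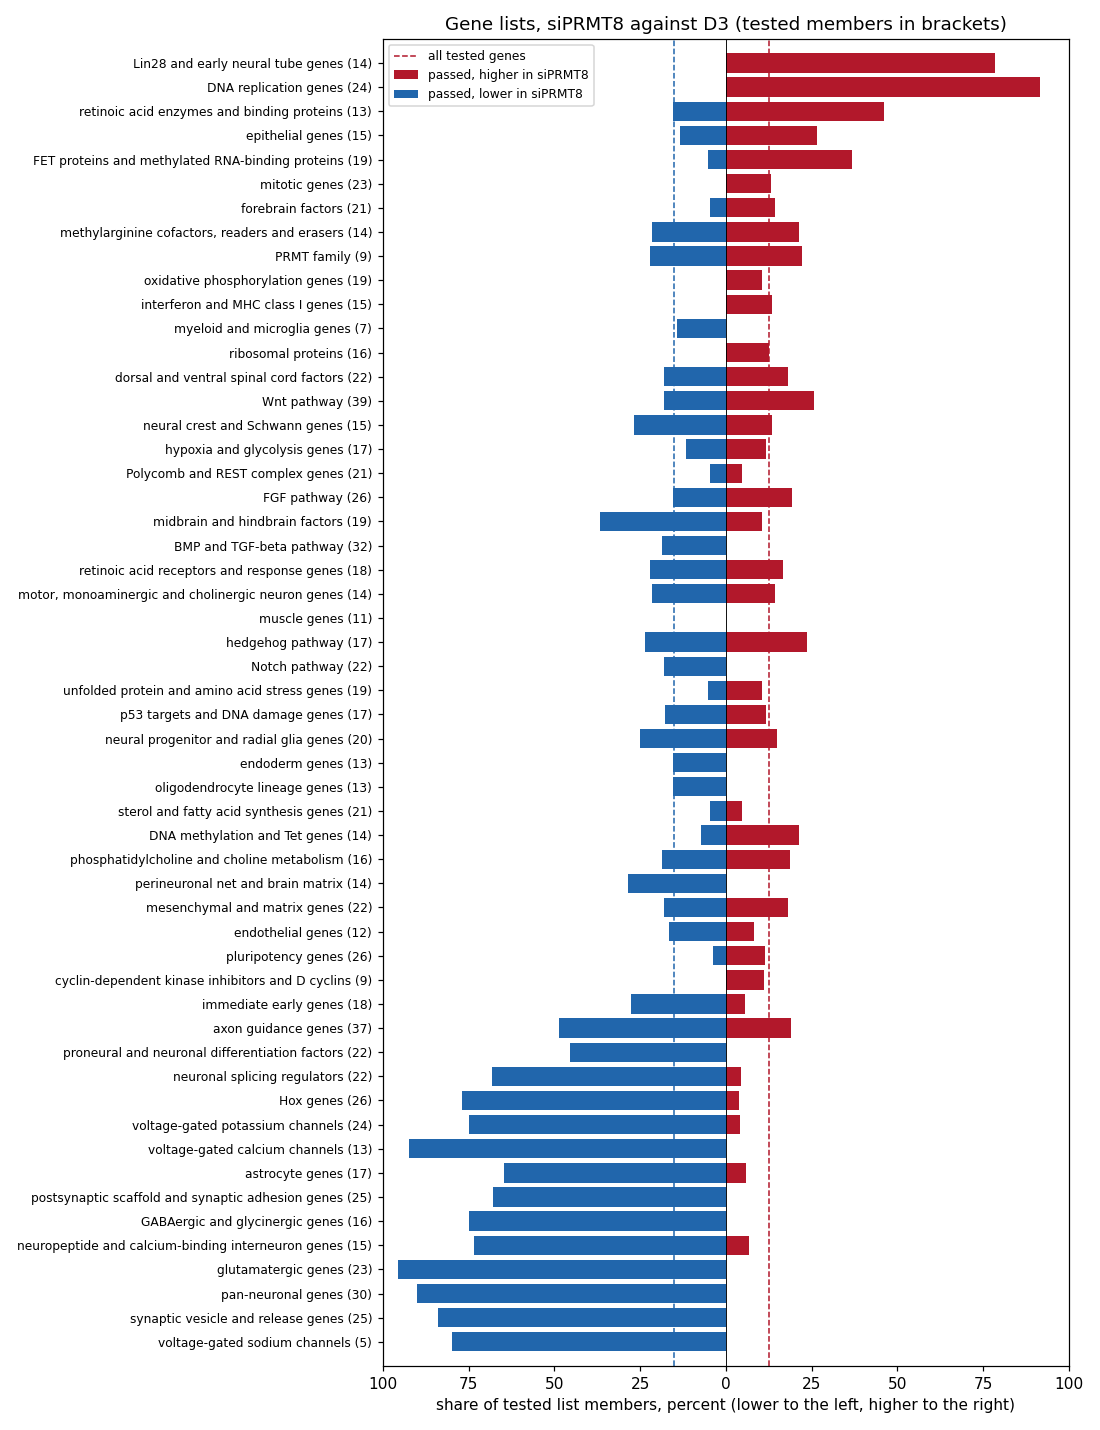
For each gene list, the share of tested members (number in brackets) that passed lower (left) or higher (right) in siPRMT8 against D3, with lists ordered by median difference and the dashed lines at the shares over all tested genes, 15.2% lower and 12.5% higher. The lists of pan-neuronal, synaptic, transmitter, channel, astrocyte, splicing and Hox genes lie at the bottom with most members lower, and the DNA replication and Lin28 lists at the top with most members higher.

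Astrocyte genes fell. Of 17 astrocyte genes, 11 fell and 1 rose (median -0.68), and the list's mean was 7.82 to 8.09 in siPRMT8 arrays, against 8.67 to 8.68 in D3 arrays. Beside Serpina3n, the transcription regulator Id4 was at 8.05, 8.41 and 8.27 in siPRMT8, against 9.59, 9.77 and 9.70 in D3 (-1.44, adjusted p = 0.000623). The secreted matrix protein gene Sparcl1 fell by 1.39 and the folate enzyme gene Aldh1l1 by 1.35. Gja1, the gap junction protein connexin 43, was the member that rose (0.48, adjusted p = 0.000731). Of 13 oligodendrocyte lineage genes, 2 fell, Olig2 by 0.50 and Pdgfra by 0.36, close to the 15.2% of all genes, and the median was -0.03. Genes of motor, monoaminergic and cholinergic neurons did not move together either, with 2 of 14 higher and 3 lower (median 0.02).

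In mice, PRMT8 has been linked to perineuronal nets, the matrix around some neurons, and to choline and phospholipid metabolism. Of 14 tested genes of these nets and of the brain matrix, 4 fell and none rose, with a median of -0.06. The receptor phosphatase gene Ptprz1 was at 7.33, 7.59 and 7.59 in siPRMT8, against 8.78, 8.92 and 8.64 in D3 (-1.28, SE 0.155, adjusted p = 0.00052). The proteoglycan genes Ncan and Bcan fell by 1.28 and 0.35, and tenascin-R, Tnr, by 0.78. Of 16 genes of phosphatidylcholine and choline metabolism, 3 rose and 3 fell (median -0.06), near the 12.5% and 15.2% of all genes. The rises were 0 to 2 when 1 siPRMT8 or D3 array was left out, 0 without siPRMT8 replicate 3 or D3 replicate 3. The phospholipase D genes Pld1, Pld3 and Pld2 fell by 0.45, 0.40 and 0.20. Pld3, a lysosomal member, was at 9.23, 9.21 and 9.23 in siPRMT8, against 9.64, 9.61 and 9.65 in D3. The phospholipase A2 gene Pla2g4a rose by 0.55, the methyltransferase gene Pemt by 0.36 and the choline transporter gene Slc5a7 by 0.33.

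Hox genes give cells their position along the body axis, with low paralog numbers used in the hindbrain and high ones towards the tail. The array carried 37 of them and 26 were tested. Of these, 20 fell, 1 rose and the median was -0.62, and the list's mean was 6.29 to 6.43 in siPRMT8 arrays, against 6.90 to 6.96 in D3 arrays. Hoxb3 was at 7.99, 8.39 and 8.12 in siPRMT8, against 9.48, 9.34 and 9.33 in D3 (-1.22, SE 0.182, adjusted p = 0.00095). Hoxa5 fell by 1.17, Hoxb5 by 1.12, Hoxa6 by 1.04, Hoxd4 by 1.02 and Hoxa3 by 0.97. No siPRMT8 array overlapped a D3 array in any of these 6 genes, the largest falls of the list. Over all tested genes, siPRMT8 lay wholly below D3 in 25.3%.

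The falls were seen in all 4 clusters. In the HoxA cluster, Hoxa4 fell by 0.33 and Hoxa7 by 0.32, Hoxa2 (-0.51, adjusted p = 0.0617) and Hoxa9 (0.09) did not pass, and Hoxa10 rose by 0.32 (adjusted p = 0.00813). Hoxa10 did not differ past the threshold from siSCR (-0.09, adjusted p = 0.43). In the HoxB cluster, Hoxb2 fell by 0.78, Hoxb4 by 0.66, Hoxb6 by 0.61, Hoxb7 by 0.50 and Hoxb9 by 0.62, and Hoxb1, the most anterior, did not pass (0.24, adjusted p = 0.131). All 5 HoxC genes tested fell, Hoxc8 by 0.91, Hoxc6 by 0.89, Hoxc5 by 0.83, Hoxc4 by 0.61 and Hoxc9 by 0.25. In the HoxD cluster, Hoxd8 fell by 0.72 and Hoxd3 by 0.62, while Hoxd9 (-0.08) and Hoxd11 (0.26, adjusted p = 0.0683) did not pass. Against siSCR, 20 of the 26 fell and none rose.

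**Figure D4:**
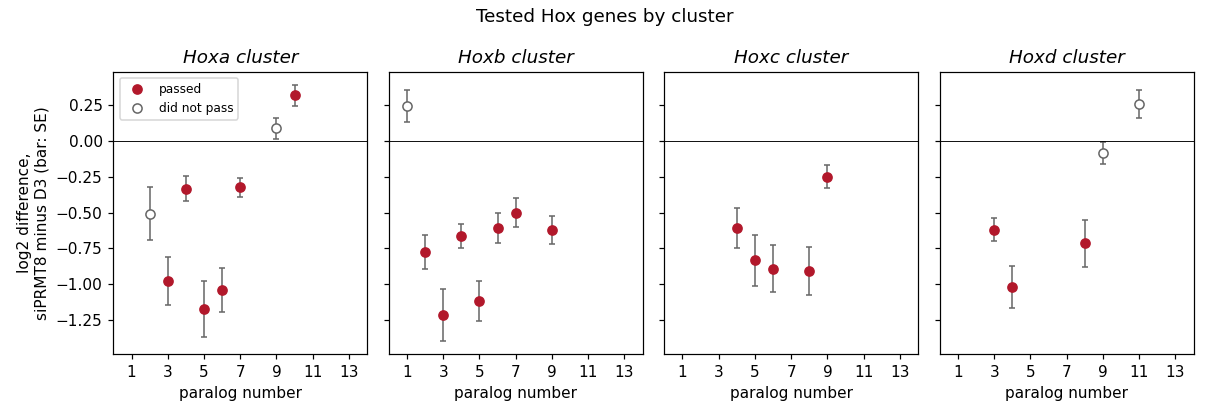
Log2 difference, siPRMT8 minus D3, of the 26 tested Hox genes (bar: limma SE) by cluster and paralog number. The values that passed are filled, and those of paralogs 3 to 6 reach -1.22, while Hoxa10 is the filled point above 0.

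Retinoic acid is made from vitamin A by dehydrogenases, carried by binding proteins and removed by CYP26 enzymes, and it switches Hox genes on through the receptors RAR and RXR. Of 13 tested genes for these enzymes and binding proteins, 6 rose and 2 fell (median 0.36). Aldh1a1, a retinaldehyde dehydrogenase, was at 6.57, 6.79 and 6.97 in siPRMT8, against 5.55, 5.80 and 5.45 in D3 (1.18, SE 0.135, adjusted p = 0.000429). Crabp2, which carries retinoic acid to the nucleus, was at 8.78, 8.69 and 9.03 in siPRMT8, against 7.51, 8.03 and 7.56 in D3 (1.14, adjusted p = 0.0173). The reductase gene Dhrs3 rose by 0.85 and the clearance enzyme gene Cyp26a1 by 0.59. The dehydrogenase of the early embryo, Aldh1a2, was at 5.61, 5.77 and 5.85 in siPRMT8, against 6.53, 6.48 and 6.28 in D3 (-0.69, adjusted p = 0.00497), and the vitamin A uptake receptor Stra6 fell by 0.22. The count that rose was 3 without siPRMT8 replicate 3 or D3 replicate 1 and 4 without siPRMT8 replicate 1 or D3 replicate 3. Against siSCR, Cyp26a1 (0.28, adjusted p = 0.26) and Aldh1a2 (-0.31, adjusted p = 0.15) did not pass.

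Of 18 retinoic acid receptors and response genes, 3 rose and 4 fell (median 0.02), beside 12.5% and 15.2% of all genes. Dhrs3 is also on this list. Rarg, a receptor, rose by 0.66 against D3 but differed by 0.08 from siSCR (adjusted p = 0.571), and Rxrb rose by 0.17. The zinc finger gene Tshz1 fell by 1.17, the Hox partner genes Meis2 and Meis1 by 0.62 and 0.57, and the transglutaminase gene Tgm2 by 0.57. Meis1 (-0.16) and Meis2 did not pass against siSCR, and without siSCR replicate 1 Meis1 passed (-0.28, adjusted p = 0.0295). Rarb, a receptor gene that retinoic acid induces, was at 6.38, 6.61 and 6.50 in siPRMT8, against 6.68, 6.48 and 6.50 in D3, and its groups overlapped (-0.06, adjusted p = 0.564).

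Promoters of Cyp26a1 and Rarb carry the direct repeat with a spacing of 5 bases, DR5, to which RAR and RXR bind, and they are shown because these genes report retinoic acid in other cells. The motif was searched on both strands in windows around gene starts taken from the RefSeq table of GRCm38.p6. It was in 1 of 9 genes for the enzymes and binding proteins that had a window (Cyp26a1). It was also in 1 of 14 receptor and response genes (Rarb) and in none of 15 Hox genes. For comparison, it was in 9 of 11778 tested genes with a window (0.0764%) and in 0.0974% of the 32851 windows searched. The 250 bases before each gene start are printed 5′ to 3′ on the gene's strand, with the match in capitals. Cyp26a1 is at chr19:37697558-37697807 on the plus strand and Rarb at chr14:16575477-16575726 on the minus strand.
Cyp26a1: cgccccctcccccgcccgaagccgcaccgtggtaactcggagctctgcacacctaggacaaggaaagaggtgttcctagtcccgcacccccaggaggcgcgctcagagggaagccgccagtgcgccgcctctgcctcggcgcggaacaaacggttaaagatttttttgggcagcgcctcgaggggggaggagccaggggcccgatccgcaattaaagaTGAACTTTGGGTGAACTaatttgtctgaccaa
Rarb: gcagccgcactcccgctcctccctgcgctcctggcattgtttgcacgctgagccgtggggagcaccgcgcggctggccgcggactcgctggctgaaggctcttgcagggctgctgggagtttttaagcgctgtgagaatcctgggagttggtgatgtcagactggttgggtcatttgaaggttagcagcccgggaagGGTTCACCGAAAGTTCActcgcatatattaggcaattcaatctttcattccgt
Of these 2 genes, Cyp26a1 rose by 0.59 (adjusted p = 0.0235) and Rarb did not pass. A match describes the letters of the window and not a bound site.

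Among the genes that rose most were epithelial keratins and genes of the early neural tube. Leaving out small RNA genes, the 12 with the largest rises and no overlap between groups were Cyp2f2, Krt15, Dapl1, Krt13, Krt5, Pim2, Trh, Prtg, Krt4, Fgf15, Aldh1a7 and Fndc3c1. Cyp2f2, a cytochrome P450 of the airway epithelium, was at 8.53, 9.17 and 9.38 in siPRMT8, against 6.20, 6.69 and 6.12 in D3 (2.69, SE 0.401, adjusted p = 0.000949). Krt15, a keratin of basal epithelial cells, was at 7.95, 8.18 and 8.59 in siPRMT8, against 5.80, 6.05 and 5.88 in D3 (2.33, adjusted p = 0.000633). Krt13, Krt5 and Krt4, keratins of stratified epithelia, rose by 1.74, 1.70 and 1.58. The D3 values of Krt4, at 4.45 to 4.78, lay below the filter value of 5.43, so it entered the test through the groups in which it was higher.

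The scrambled line was also high for these epithelial genes. Cyp2f2 was at 8.99, 7.99 and 7.94 in siSCR and Krt15 at 8.19, 6.87 and 7.005. Against siSCR, Cyp2f2 (0.72), Krt15 (0.89), Dapl1 (0.12), Krt13 (0.71), Krt5 (0.21), Krt4 (0.43) and the dehydrogenase gene Aldh1a7 (0.15) did not pass, with adjusted p-values of 0.0555 for Krt15 and higher for the others. Without siSCR replicate 1, Krt15 (1.31, adjusted p = 0.00107), Krt13 (1.01), Krt4 (0.83) and Krt5 (0.62) passed, and Cyp2f2 (1.07, adjusted p = 0.0723), Dapl1 (0.47) and Aldh1a7 (0.33) did not. Between siSCR and D3, Aldh1a7 passed (1.30, adjusted p = 0.0395) and the other 6 did not, although in each of the 7 genes every siSCR array lay above every D3 array. Without siSCR replicate 1, Aldh1a7 did not pass either (1.11, adjusted p = 0.0726). Pim2, Trh, Prtg, Fgf15 and Fndc3c1 passed between siPRMT8 and siSCR.

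The wider list of epithelial genes held 15 members, of which 4 rose and 2 fell against D3 (median 0.17). Over all genes, 12.5% rose and 15.2% fell. Besides Krt5, Krt19 rose by 0.88, the epithelial transcription factor gene Grhl2 by 0.76 and Krt7 by 0.48, and the tight junction gene Cldn4 fell by 0.71 and Krt18 by 0.66. The list's mean was 7.88 to 8.02 in siPRMT8 arrays, against 7.70 to 7.84 in D3 arrays. The part of epithelial cells in the other results was not tested.

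**Figure D5:**
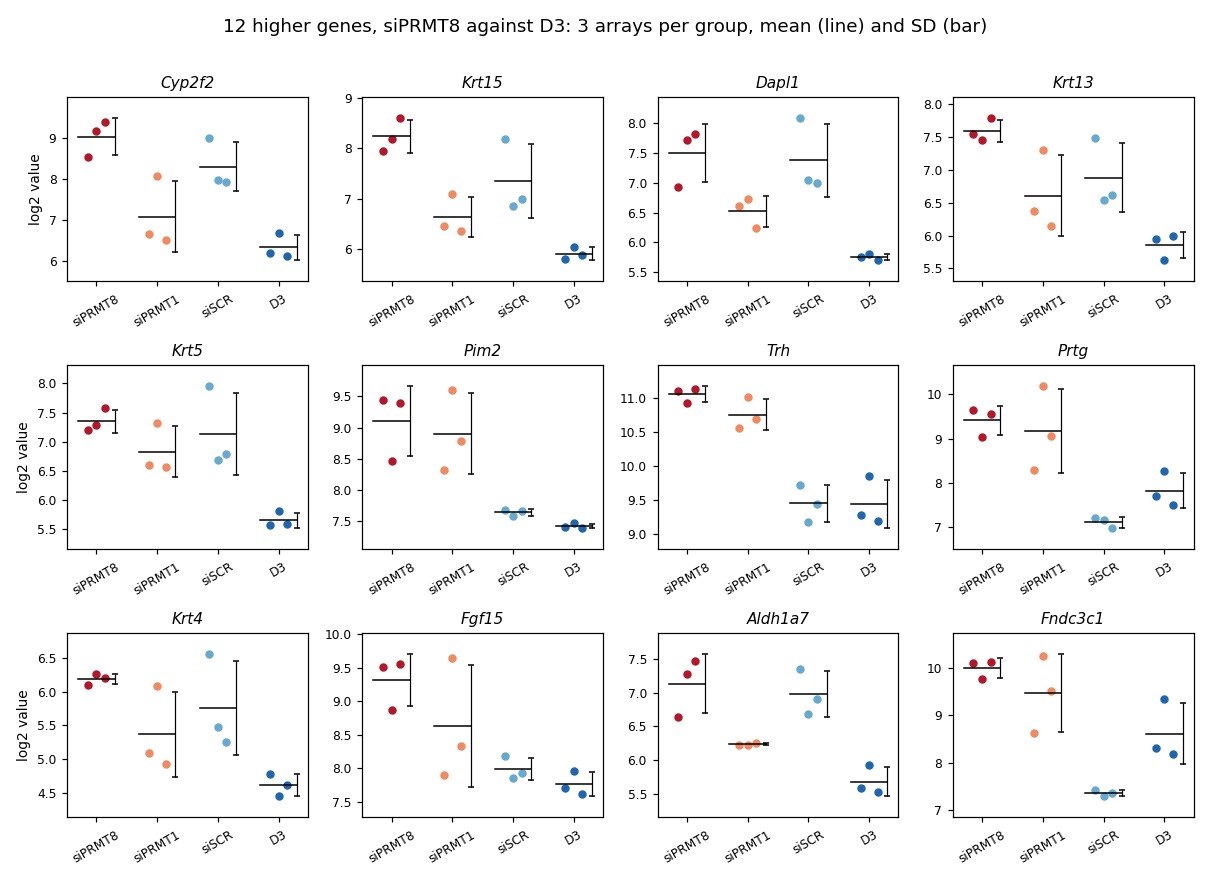
Log2 values of the 12 genes with the largest rises, small RNA genes left out, in all 12 arrays (points), by group, with the group mean (line) and SD (bar, n = 3). For Krt5 the siPRMT8 arrays are at 7.19 to 7.57, the siSCR arrays at 6.68 to 7.95 and the D3 arrays at 5.56 to 5.80, while for Trh the siSCR arrays (9.18 to 9.73) lie with the D3 arrays (9.20 to 9.85).

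Genes of the early neural tube and of the LIN28 programme rose. LIN28 proteins block the maturation of let-7 microRNAs and are present in young progenitors. Of 14 genes on this list, 11 rose and none fell (median 0.57), beside 12.5% and 15.2% of all genes. The list was written with earlier results of these data known, so its count is no independent support. Pim2, a serine kinase, was at 9.45, 8.46 and 9.40 in siPRMT8, against 7.41, 7.47 and 7.40 in D3 (1.68, SE 0.294, adjusted p = 0.00198). Prtg was at 9.64, 9.03 and 9.56 in siPRMT8, against 7.71, 8.27 and 7.50 in D3 (1.58, adjusted p = 0.00863). In both genes siPRMT8 replicate 2 was the lowest of its group and yet above all D3 arrays. Fndc3c1 rose by 1.38 and Greb1 by 1.01. Lin28a and Lin28b, named after their values were seen, rose by 0.81 (adjusted p = 0.0088) and 0.58 (adjusted p = 0.00155). The count was 6 without siPRMT8 replicate 3, D3 replicate 1 or D3 replicate 3, and 7 without siPRMT8 replicate 1.

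General progenitor genes did not follow as a group, with 3 of 20 rising and 5 falling (median -0.02). Over all genes, 12.5% rose and 15.2% fell. Sox1 rose by 0.43, the POU factor gene Pou3f1 by 0.44 and Prom1 by 0.35, while the glutamate transporter gene Slc1a3 fell by 0.88, the receptor gene Notch1 by 0.54 and Hopx by 0.40. Dnmt3b, the de novo DNA methyltransferase of the early embryo, was at 9.11, 8.60 and 8.98 in siPRMT8, against 7.67, 7.71 and 7.50 in D3 (1.27, SE 0.146, adjusted p = 0.000429). Of the 14 genes of DNA methylation and its removal, 3 rose and 1 fell, not far from the shares of all genes. Uhrf1 rose by 0.32, Mbd3 by 0.25, and the methyl-CpG reader gene Zbtb4 fell by 0.30.

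DNA replication genes rose nearly without exception, by small amounts. Of 24 tested, 22 rose and none fell (median 0.42), and the list's mean was 9.13 to 9.22 in siPRMT8 arrays, against 8.71 to 8.78 in D3 arrays. Tyms, which makes thymidylate, was at 9.02, 8.90 and 9.19 in siPRMT8, against 8.19, 8.23 and 7.98 in D3 (0.90, SE 0.129, adjusted p = 0.000809). The helicase partner gene Gins2 rose by 0.58, the polymerase gene Pola1 by 0.57 and the thymidine kinase gene Tk1 by 0.52. The 2 that did not pass were Rrm2 (0.28, adjusted p = 0.072) and Cdt1 (0.29, adjusted p = 0.158). Against siSCR, 13 of the 24 rose and none fell. Of 23 mitotic genes, 3 rose (Birc5 by 0.35, Cenpe by 0.27 and Cdk1 by 0.26) and none fell, near the 12.5% of all genes. The difference between the 2 lists was not tested. That mitotic count was 2 without siPRMT8 replicate 1, 0 without D3 replicate 1 and 1 without any of the other 4 arrays. Of 9 cyclin-dependent kinase inhibitors and D cyclins, Ccnd1 rose by 0.30 and the others did not pass, with differences from -0.19 for Cdkn1b to 0.17 for Cdkn2a.

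E2F factors switch replication genes on at the start of S phase. The words TTTCCCGC, TTTCGCGC, TTTGCCGC and TTTGGCGC, each on both strands, were in the window from 250 bases before to 50 bases after the start of 9 of 19 replication genes with a window (47.4%), of 1 of 19 mitotic genes (5.26%) and of 511 of 11778 tested genes (4.34%). Over all windows that were searched the share was 2.26%. The promoters of Mcm6, a subunit of the replicative helicase, and Pola1 are shown because they hold such words before the start, with overlapping words of Mcm6 joined. They are on the minus strand of GRCm38.p6 at chr1:128359706-128359955 for Mcm6 and chrX:93632156-93632405 for Pola1, per RefSeq, with the words in capitals.
Mcm6: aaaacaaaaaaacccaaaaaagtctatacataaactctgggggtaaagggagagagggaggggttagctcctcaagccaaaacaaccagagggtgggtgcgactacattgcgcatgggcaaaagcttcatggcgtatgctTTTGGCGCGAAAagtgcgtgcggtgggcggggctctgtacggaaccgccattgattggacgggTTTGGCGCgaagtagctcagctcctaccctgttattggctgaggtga
Pola1: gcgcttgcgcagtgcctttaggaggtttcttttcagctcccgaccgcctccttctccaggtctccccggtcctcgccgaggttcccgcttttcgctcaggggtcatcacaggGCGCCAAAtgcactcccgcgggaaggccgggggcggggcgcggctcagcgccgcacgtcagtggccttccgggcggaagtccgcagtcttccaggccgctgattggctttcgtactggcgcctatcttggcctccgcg
Mcm6 was at 9.57, 9.54 and 9.56 in siPRMT8, against 9.22, 9.20 and 9.15 in D3 (0.37, adjusted p = 0.00705). Pola1 was at 8.10, 8.07 and 8.31 in siPRMT8, against 7.63, 7.66 and 7.50 in D3 (0.57, adjusted p = 0.000725). Neither gene's groups overlapped, as in 52.6% of all tested genes.

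Signalling genes changed in both directions, beside 12.5% of all genes that rose and 15.2% that fell. In the hedgehog pathway, which patterns the ventral neural tube, 4 of 17 genes fell and 4 rose. The ligand Shh was at 7.03, 7.11 and 7.22 in siPRMT8, against 7.76, 7.73 and 7.67 in D3 (-0.60, SE 0.0935, adjusted p = 0.00118). The ligand-binding inhibitor Hhip fell by 1.08, the receptor Ptch1 by 0.54 and Disp2, a relative of the ligand exporter, by 1.39. Gli3, the pathway's main repressor, rose by 0.59, the inhibitor Sufu by 0.42, the transducer Smo by 0.36 and the coreceptor Gas1 by 0.32. The count of falls stayed at 4 when any 1 of the siPRMT8 or D3 arrays was left out. The count of rises was 0 without siPRMT8 replicate 1 or D3 replicate 1, 1 without siPRMT8 replicate 3, D3 replicate 2 or D3 replicate 3, and 3 without siPRMT8 replicate 2.

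Of 39 Wnt pathway genes, 10 rose and 7 fell. Lef1, a transcription factor of the pathway, was at 8.93, 8.65 and 8.75 in siPRMT8, against 7.78, 8.03 and 7.61 in D3 (0.97, SE 0.105, adjusted p = 0.000429). The dorsal midline ligand Wnt1 rose by 0.80, the agonist Rspo3 by 0.78 and the receptor Fzd10 by 0.74, while the R-spondin receptor Lgr5 fell by 0.85, Wnt7a by 0.84, the antagonist Apcdd1 by 0.57 and Wnt5a by 0.34. Of 26 FGF pathway genes, 5 rose and 4 fell. Falls in the Wnt and FGF lists were near the 15.2% of all genes, and 12.5% of all genes rose. Fgf15, a ligand of the embryonic brain, was at 9.51, 8.87 and 9.56 in siPRMT8, against 7.71, 7.96 and 7.62 in D3 (1.55, adjusted p = 0.00676), Fgf5 rose by 1.11 and the feedback inhibitor Spry2 by 0.55. The intracellular factors Fgf12, Fgf13 and Fgf11, which act on sodium channels and not on FGF receptors, fell by 1.19, 0.82 and 0.69. Both lists had fewer calls when 1 array was left out, with 4 to 8 Wnt genes rising, 3 to 6 falling, and 3 FGF genes rising.

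Of 22 Notch pathway genes, 4 fell, Notch1 by 0.54, Numbl by 0.40, Hey1 by 0.37 and Rfng by 0.28. Of 32 BMP and TGF-beta pathway genes, 6 fell, led by Id4 and followed by Bmp7 (-0.40), Tgfb1 (-0.34) and the receptor Bmpr2 (-0.33). No gene of either list rose, and the falls were near the 15.2% of all genes. With only the siPRMT8 and D3 arrays 5 BMP and TGF-beta genes rose, and with median centring 6. Against siSCR, 3 Notch genes and 5 BMP and TGF-beta genes were higher. Regional factors were mixed. In the spinal cord list, 4 of 22 rose, among them the dorsal genes Zic5 (0.94), Zic2 (0.83) and Pax3 (0.80), and 4 fell, the interneuron factor Lhx1 by 0.89, Dbx1 by 0.80, Olig2 by 0.50 and Dbx2 by 0.38. In the midbrain and hindbrain list, 2 of 19 rose, Wnt1 and Gbx2 (0.38), and 7 fell, among them Phox2a by 0.91, Pax8 by 0.90, Nr4a2 by 0.66 and Gata3 by 0.65. Against siSCR, 4 of these 19 were higher and 3 lower. In the forebrain list, 3 of 21 rose, Eomes by 0.68, Fezf1 by 0.50 and Six6 by 0.37, and Lhx5 fell by 0.57. These shares of rises stand beside 12.5% over all genes, and without 1 array the forebrain rises were 1 to 3 and the spinal cord rises 2 to 3. The D3 values of Six6 lay below the filter value.

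Proteins that carry or read methylated arginines include the FET proteins and other RNA-binding proteins. Of 19 such genes, 7 rose and 1 fell (median 0.14), beside 12.5% and 15.2% of all genes. The splicing factor Sfpq was at 10.995, 10.75 and 10.89 in siPRMT8, against 10.43, 10.56 and 10.32 in D3 (0.44, adjusted p = 0.0116). The export adaptor Alyref rose by 0.39, the stress granule protein G3bp1 by 0.29 and Hnrnpu by 0.23, while Hnrnpul1 fell by 0.25. Median centring gave 12 rises, and leaving out 1 array gave 2 to 6. Of 14 cofactors, readers and erasers of methylarginine, 3 rose and 3 fell, not far from these shares of all genes. Mat2b, a subunit of the enzyme that makes S-adenosylmethionine, rose by 0.51, and the PRMT5 partners Clns1a and Wdr77 rose by 0.40 and 0.37. Ddah1, which breaks down free asymmetric dimethylarginine, was at 9.59, 9.83 and 9.78 in siPRMT8, against 10.30, 10.19 and 10.28 in D3 (-0.52, adjusted p = 0.00186). The PRMT1 partners Btg1 and Btg2 fell by 0.32 and 0.24.

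Comparison with the scrambled line asked how much of the difference from D3 is also seen against cells that carry a construct. Against siSCR, 3565 genes passed (23.8%), 1595 higher (10.7%) and 1970 lower (13.2%). siSCR itself differed from D3 in 23 genes (0.154%), 9 higher (0.0602%) and 14 lower (0.0936%). This count does not show the control lines to be alike. Pan-neuronal list means were 8.45 to 9.22 in siSCR arrays, 8.14 to 8.36 in siPRMT8 and 9.18 to 9.25 in D3. Inhibitory list means were 6.71 to 7.68, 6.58 to 6.71 and 7.43 to 7.55 in the same order. Hox list means, at 6.85 to 7.20 in siSCR, stayed above the 6.29 to 6.43 of siPRMT8. Against siSCR, 21 of 30 pan-neuronal genes were lower and 1 higher, 21 of 25 vesicle genes were lower, 14 of 25 postsynaptic genes were lower and 1 higher, 15 of 23 glutamatergic genes were lower, and 11 of 16 inhibitory genes were lower and 1 higher. Fewer neuropeptide genes passed than against D3, with 5 of 15 lower and 1 higher. The proneural factors had 4 of 22 higher and 4 lower (median 0.03), so the direction seen against D3 was not seen against siSCR. siSCR replicate 1, which stands apart, had lower values than the other siSCR arrays in all 12 of the genes with the largest falls. For Kcnip1 the siSCR values were 6.60, 8.39 and 8.22.

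Comparison of the 2 knockdown lines asked where siPRMT8 differs from siPRMT1. It gave 23 genes (0.154%), 10 higher (0.0669%) and 13 lower (0.0869%). siPRMT1 differed from D3 in 3952 genes (26.4%), a comparison that shares its D3 arrays with that of siPRMT8. Against D3, 26 of 30 pan-neuronal genes were lower and 1 higher in siPRMT1, and 21 of 25 vesicle genes were lower. Of 26 Hox genes, 19 were lower and 2 higher, and 21 of 24 DNA replication genes were higher. No member of these lists passed between siPRMT8 and siPRMT1. Prmt1 was at 9.27, 9.20 and 9.27 in siPRMT8, against 7.72, 7.95 and 7.59 in siPRMT1 (1.49, SE 0.0885, adjusted p = 2.36e-05), as the label of the second line states. Aldh1a1 was at 6.57, 6.79 and 6.97 in siPRMT8, against 5.71, 5.90 and 5.84 in siPRMT1 (0.96, adjusted p = 0.0214). The matrix protein gene Efemp1 was higher by 0.82, Clca1 by 0.77, Sema3c by 0.59 and the neural crest factor gene Tfap2a by 0.59.

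Lower in siPRMT8 than in siPRMT1 was Pga5, a pepsinogen gene, at 8.70, 8.63 and 8.68 in siPRMT8 and 9.80, 9.85 and 9.54 in siPRMT1 (-1.06, SE 0.108, adjusted p = 0.00407). Aspa, which breaks down N-acetylaspartate, differed by -0.81, the GTPase gene Rhoj by -0.74, Reep6 by -0.64, the chemerin receptor gene Cmklr1 by -0.62 and the lysine methyltransferase gene Setd7 by -0.60. Pga5 and Aspa did not pass between siPRMT8 and D3, with differences of 0.12 and 0.03. Without siSCR replicate 1 in the shared estimate of spread, 75 genes passed between the 2 knockdown lines in place of 23. A gene that did not pass here is not shown to be alike in the 2 lines.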

How the data were processed

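The authors deposited 1 table of log2 values for 35556 probe sets of a whole-transcript Affymetrix array and 12 arrays. That these are log2 is taken from their span of 0.97 to 13.54. Their normalisation is not given in the sources used here. RNA was labelled as biotinylated cDNA, per the labels' protocols. Arrays had medians within 0.023 of each other, and the values were used as deposited.

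Probe sets were named through the platform annotation (21789 with 1 symbol, 1621 with several, 12146 with none) and updated by gene ID. The probe set with the highest mean was kept for each of 19938 genes, and the lowest 25% by mean (below 5.43) were left out, leaving 14953. The test was that of limma (version 3.58.1, R 4.3.3), in 1 model of 4 group means with 8 residual degrees of freedom and Benjamini-Hochberg adjustment at 0.05. In a simulation of the comparison with D3 over 14953 genes, 82.5% of 80 genes changed 1.5-fold, 96.2% of 80 changed 2-fold and 100% of 40 changed 4-fold were recovered, with 16 false calls. The simulation changed a far smaller share of genes than the 27.7% that passed against D3, so its rates need not hold here. The alternative without siSCR replicate 1 was chosen after seeing the data. The text names the PRMT family, the Hox genes, the 12 largest non-overlapping changes each way against D3, the 6 each way against siPRMT1, up to 4 each way per list, and members that complete a family. Genes and lists were chosen with earlier results of these data known. The alternatives were other scalings, filters, probe set rules, variance models and array subsets. The number of arrays limits the precision, and no background level or depth was available. Promoters and mature microRNAs are from RefSeq tables of GRCm38.p6. The promoter search did not cover every gene start, so its shares hold for the windows searched.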

Additional observations from a re-analysis of the deposited data

How the results depend on the processing

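The count of changed genes was 6581 with array weights, whose estimation stopped before it fully converged, and 11 when a change over 1.5-fold was required (1 higher, 10 lower). The higher genes numbered 2918 with only the siPRMT8 and D3 arrays, 3123 with median centring and 3283 with array weights. Without 1 array, the total ran from 2736 to 4530 and the higher genes from 1049 to 2079, the upper ends without siSCR replicate 1. The Prmt8 change kept its direction and passed under each alternative that was read for it. Prmt8 was not tested when the lowest 50% of genes were left out, and the 1.5-fold requirement was not read for it. Of 226 named genes called against D3, 19 to 44 lost the call without 1 siPRMT8 or D3 array (44 without D3 replicate 1), 10 under quantile normalisation, 13 under median centring and 17 with the block, and none reversed. In at least 1 of these 6 fits 50 lost it, and 10 lost it in all 6 (Cenpe, Cldn4, Gli3, Hnrnpu, Hoxc9, Rfng, Rxrb, Scn9a, Tagln and Unc5c). A fit with the replicate number as a block gave 3807 changed genes against D3, 14 between the knockdown lines and 15 between siSCR and D3. Same-numbered siPRMT8 and D3 arrays deviated from their group means with correlations of -0.0812, -0.229 and -0.254, and unlike-numbered arrays with -0.0293 to 0.247. Deviations from a mean of 3 arrays are tied to each other, so these values cannot say whether the replicate numbers pair the arrays. Without siSCR replicate 1, 75 genes differed between the knockdown lines. Genes near 0 changed sign: Scn8a under quantile normalisation (0.0287) and median centring (0.0263), and without 1 array from -0.0806 to 0.0021, Rarb under median centring (0.0083) and without 1 array from -0.118 to 0.0011, Prmt6 from -0.0015 to 0.159, and Aspa from -0.0759 to 0.126. The cause of these differences was not tested.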

Other observations

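Probe sets for microRNA hairpins, which the naming rule left out and which are described here after their values were seen, held the largest rise of all. These probe sets read the hairpin or its longer transcript, and mature microRNA levels were not measured. Of 120 tested genes with a hairpin in RefSeq, 11 rose and 2 fell in siPRMT8 against D3 (median 0.095), where 12.5% rose and 15.2% fell among all genes. Mir302d, of a cluster known from pluripotent cells and the early embryo, was at 7.78, 6.43 and 8.01 in siPRMT8, against 4.78, 4.46 and 4.60 in D3 (2.80, adjusted p = 0.00114 by limma). Its siPRMT1 values were 5.48, 7.21 and 5.87 and its siSCR values 4.13, 4.40 and 4.60. The other members of that cluster had means below the filter and were not tested. Mir302a was at 7.08, 5.47 and 7.30 in siPRMT8, against 3.29, 3.39 and 3.21 in D3. Mir302c was at 7.21, 5.64 and 7.46 in siPRMT8, against 3.72, 4.10 and 3.64 in D3. Mir302b and Mir367 also had every siPRMT8 array above every D3 array.

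Members of the related clusters around miR-17 and miR-363 were higher too. Mir363 was at 7.06, 6.64 and 7.19 in siPRMT8, against 4.77, 5.18 and 5.09 in D3 (1.95, adjusted p = 0.000301). Mir302d, Mir363 and Mir19a entered the test through the groups in which they were high, since their D3 values lay below the filter value of 5.43. Mir19a rose by 1.04, Mir18 by 0.92 and Mir19b-1 by 0.83. The rises were not confined to these clusters. The remaining hairpin genes that rose were Mirlet7d, of the let-7 family, Mir7-1, Mir219a-2, Mir181b-2, Mir15a and Mir93. The mature sequences are shown with the seed, bases 2 to 8, in capitals. miR-19a and miR-19b share a seed, and the seed of miR-302d differs from that of miR-18a. They are from RefSeq on GRCm38.p6, at chr3:127545665-127545687 and chr14:115043867-115043889 (plus strand) for the first 2, at chr14:115044048-115044070 and chr14:115044358-115044380 (plus strand) for the next 2, and at chrX:52741697-52741718 (minus strand) for the last.
mmu-miR-302d-3p: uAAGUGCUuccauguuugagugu
mmu-miR-18a-5p: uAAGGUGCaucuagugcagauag
mmu-miR-19a-3p: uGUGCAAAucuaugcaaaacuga
mmu-miR-19b-3p: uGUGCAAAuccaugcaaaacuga
mmu-miR-363-3p: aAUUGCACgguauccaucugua

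Of 26 pluripotency genes, 3 rose and 1 fell against D3 (median -0.09). Against siSCR none was higher and 4 were lower (median -0.34), so the direction of the calls differed by control. Pou5f1, which maintains pluripotency, was at 10.19, 10.18 and 10.16 in siPRMT8, against 9.68, 9.67 and 9.57 in D3 (0.54, adjusted p = 0.00395), but differed from siSCR by 0.02 (adjusted p = 0.936). Tfcp2l1 fell by 0.51. Of 22 mesenchymal genes, 4 rose and 4 fell, Dcn by 0.85 and Postn by 0.71, while Tagln rose by 0.68. The rises were 0 to 2 and the falls 2 to 6 when 1 array was left out, with no rise without D3 replicate 1 or 2, and Tagln did not pass in any of these fits. Dcn and Postn each lost the call in 5 of these fits. Of 15 neural crest genes, 2 rose and 4 fell. Tfap2a was at 7.58, 7.75 and 7.62 in siPRMT8, against 8.82, 8.60 and 8.85 in D3 (-1.11, adjusted p = 0.000264), with siSCR at 7.34, 7.61 and 7.69. None of 11 muscle genes, 3 of 12 endothelial genes and 1 of 7 myeloid genes passed, the last being Cd68 (-0.91, adjusted p = 0.0198). Over all tested genes, 12.5% rose and 15.2% fell, and 27.7% passed in either direction.

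Immediate early genes fell in 5 of 18 and rose in 1 (median -0.11). Jund was at 7.82, 7.81 and 7.90 in siPRMT8, against 8.53, 8.64 and 8.63 in D3 (-0.76, adjusted p = 0.000264). Jun fell by 0.70, Fos by 0.53 and Dusp1 by 0.44. Of 15 interferon and MHC class I genes, 2 rose and none fell against D3, near the 12.5% of all genes, and none rose and 2 fell against siSCR (median -0.11). Ifit1 rose by 0.67 and Ifit3 by 0.64, and Ifit3 did not pass in 5 of the 6 fits without 1 siPRMT8 or D3 array. Fas fell by 0.63 in the p53 target list, in which 2 of 17 rose and 3 fell. Lists for protein folding stress, sterol synthesis, hypoxia, oxidative phosphorylation, ribosomal proteins and Polycomb had at most 4 calls each. The largest median size among them was 0.10, in oxidative phosphorylation. Each of these lists had 16 to 21 tested genes. Over all tested genes, 27.7% passed, 12.5% higher and 15.2% lower.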
